A study of Mus musculus with 10 samples.

Results

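Megalin and cubilin are the receptors with which the proximal tubule takes filtered proteins back from the urine. The genes described here are 8 members of that uptake route: Lrp2 (megalin), Cubn (cubilin), Amn (amnionless), Lrpap1 (the receptor-associated protein RAP), Dab2, Clcn5, Ocrl and Fcgrt. They were chosen by name, and all 8 were found among the 13837 genes with deposited values and were tested. Whole kidneys of 3-month-old mice were compared between the genotypes labelled RagC S74N (+/+), the wild-type controls (n = 5), and RagC S74N (KI/+), the heterozygous knock-in (n = 5), with 1 QuantSeq 3′ library per mouse. RagC, encoded by Rragc, is a Rag GTPase that passes nutrient signals to mTORC1, and S74N is an activating, GDP-like substitution introduced with CRISPR in the whole body, so that it was not limited to the tubule. The mice are listed as C57BL/6. No treatment is given for them, and the sex of the single mice is not given in the labels, although reads of the Y-linked gene Ddx3y were present in all 10 libraries (317 to 478 normalized counts).

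Megalin and cubilin sit on the apical membrane of the proximal tubule, bind albumin, vitamin carriers, metallothioneins and many small filtered proteins, and enter the cell through clathrin-coated pits. Cubilin has no transmembrane part and reaches the membrane only together with amnionless, RAP keeps new megalin from binding its ligands too early on the way to the membrane, and Dab2 links the tail of megalin to clathrin. In the endosome, the chloride-proton exchanger encoded by Clcn5 and the phosphatase encoded by Ocrl serve acidification and the return of the receptors, and their loss in humans gives Dent disease and Lowe syndrome. The neonatal Fc receptor, encoded by Fcgrt, rescues albumin and immunoglobulin G from degradation.

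Of the 8 members, 1 fell in KI/+ kidneys and 7 did not pass the test. Dab2 was 21.3% lower, whereas both receptors, their partners and the 3 endosomal members had log2 fold changes between -0.17 and 0.12, with intervals that all include 0. Changes were called at an adjusted p of 0.05 in a limma fit over all 13197 genes that passed a filter on low values, in which 487 genes (3.69%) were called and 267 (2.02%) were called lower in KI/+. With 8 genes and 1 call, nothing is read from this count about the members as a group. Over the 8 members, 5 were lower and 3 were higher in KI/+, and their median log2 fold change was -0.06, beside 0.00046 for all genes tested. The values of 1 member did not overlap between genotypes, and those of 7 did, beside 5.0% of all genes tested without overlap.

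**Figure D1:**
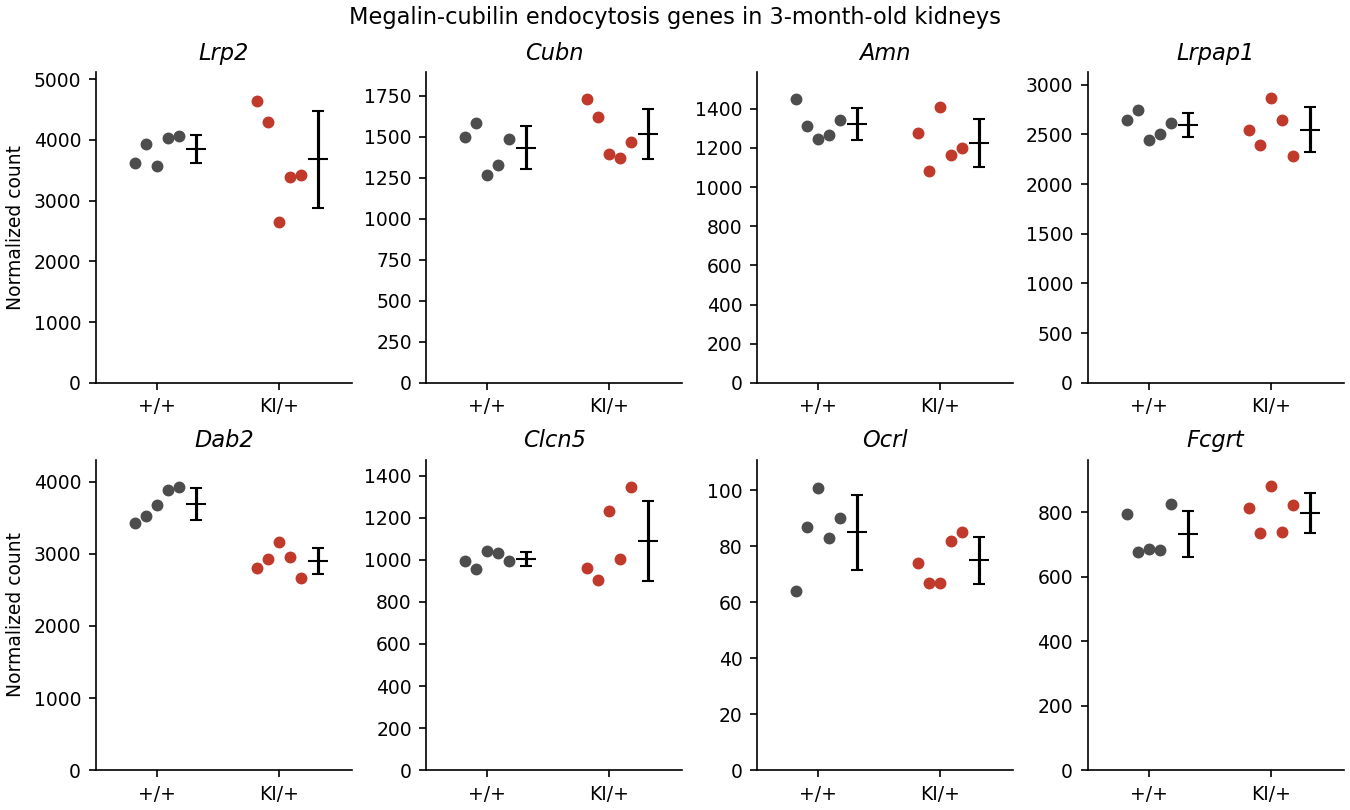
Normalized counts of the 8 members (y axis, from 0) in the 5 +/+ mice (grey) and the 5 KI/+ mice (red), with 1 point per mouse and the mean and SD of each genotype as a bar. The points of Dab2 separate, from 3422 to 3927 in +/+ and from 2672 to 3159 in KI/+, and those of the other 7 genes overlap.

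Because Dab2 carries the difference, the sequence at its start is shown, beside that of Amn, the other window that held a searched motif. The windows run from 250 bases before to 50 bases after an annotated start, are written 5′ to 3′ on the strand of the gene and come from RefSeq on GRCm38.p6, a different build from the GRCm39 of the expression values. All 8 members matched, with 10 windows in all, since Dab2 and Clcn5 have 2 annotated starts each. Capitals mark the motif found.
Dab2 window 1 (chr15:6299539-6299838, + strand): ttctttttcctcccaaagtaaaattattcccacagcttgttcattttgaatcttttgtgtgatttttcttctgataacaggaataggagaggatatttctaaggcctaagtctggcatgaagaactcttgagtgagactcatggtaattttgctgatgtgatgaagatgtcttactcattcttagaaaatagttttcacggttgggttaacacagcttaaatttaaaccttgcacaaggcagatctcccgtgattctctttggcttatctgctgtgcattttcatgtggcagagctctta
Dab2 window 2 (chr15:6386498-6386797, + strand): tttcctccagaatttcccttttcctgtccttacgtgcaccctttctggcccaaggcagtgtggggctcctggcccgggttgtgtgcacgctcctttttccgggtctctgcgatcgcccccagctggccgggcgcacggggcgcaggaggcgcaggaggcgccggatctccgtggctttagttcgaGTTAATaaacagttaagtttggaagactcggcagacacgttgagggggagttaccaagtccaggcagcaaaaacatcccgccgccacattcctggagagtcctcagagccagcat
Amn window (chr12:111270846-111271145, + strand): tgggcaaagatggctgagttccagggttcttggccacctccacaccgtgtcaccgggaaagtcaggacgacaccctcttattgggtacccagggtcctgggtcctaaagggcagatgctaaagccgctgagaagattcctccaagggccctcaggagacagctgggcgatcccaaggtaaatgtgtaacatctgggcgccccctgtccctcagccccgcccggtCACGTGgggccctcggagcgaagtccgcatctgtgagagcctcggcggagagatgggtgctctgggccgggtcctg
Both strands of each window were searched for CACGTG, an E-box that MiT/TFE factors such as TFEB bind, and for GTTAAT, an arm of the palindrome bound by the HNF1 factors of the proximal tubule. Neither motif contains the other. CACGTG was found in 1 of the 10 windows, that of Amn at position -26 from the start, and GTTAAT in 1 of 10, the second window of Dab2 at position -65. Of all 32851 RefSeq windows of the same length, 7.15% held CACGTG and 7.1% held GTTAAT. These matches are descriptions of the letters, and 3′ reads do not show which of the Dab2 starts was used.

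Lrp2 encodes megalin, a giant receptor of the LDL receptor family. Its normalized counts, the read counts of a gene after division by the size factor of the library, were 3616, 3933, 3577, 4022 and 4062 in +/+ replicates 1 to 5 and 4634, 4294, 2648, 3388 and 3421 in KI/+ replicates 1 to 5. The +/+ mice lay close together, whereas KI/+ replicates 1 and 2 were above every +/+ mouse and KI/+ replicates 3, 4 and 5 were below every +/+ mouse. The means were 3842 ± 229 (SD, n = 5) in +/+ and 3677 ± 791 (SD, n = 5) in KI/+, a log2 fold change of -0.09 (SE 0.12, 95% interval -0.34 to 0.16, limma adjusted p = 0.799; two-sided exact permutation test, p = 0.627). Changes of Lrp2 inside that interval could not be resolved with these mice. The coefficient of variation was 5.97% in +/+ and 21.5% in KI/+ kidneys, while counting alone gives 1.62%, and the difference in spread was not tested.

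The direction of Lrp2 rests on a single mouse. Without KI/+ replicate 3, the lowest of the 10, the log2 fold change was 0.02. The 5 genes whose log2 values followed Lrp2 most closely over the 10 mice, among 9128 genes with a mean of at least 50, were Snx7 (Pearson r = 0.979), Gnb2 (0.938), Zadh2 (0.938), Net1 (0.936) and Pmpcb (0.936). This is a ranking over the same 10 libraries, whose differences in depth and RNA quality touch every gene, and it carries no test. None of these 5 genes was called between genotypes in limma, with adjusted p values from 0.729 to 0.861. Among the members themselves, Cubn had r = 0.57 with Lrp2 and Clcn5 had r = -0.71, over the same 10 mice.

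Cubn encodes the vitamin B12 and albumin receptor cubilin. Its 5 +/+ values were 1500, 1587, 1269, 1330 and 1485 normalized counts and its 5 KI/+ values were 1731, 1624, 1396, 1372 and 1468. KI/+ replicates 1 and 2 were again the highest, as for Lrp2, and the rest lay within the +/+ range. Cubn differed by 0.08 on the log2 scale (SE 0.09, 95% interval -0.11 to 0.27, limma adjusted p = 0.744), from 1434 ± 131 to 1518 ± 154 (SD, n = 5 each), which was less than the spread between mice (exact permutation test, p = 0.365).

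Amn encodes the small membrane partner that cubilin needs to leave the endoplasmic reticulum. Normalized counts of Amn were 1451, 1314, 1245, 1266 and 1342 in +/+ mice and 1277, 1084, 1409, 1165 and 1202 in KI/+ mice. Of the KI/+ values, 3 were below the lowest +/+ value, but KI/+ replicate 3 was near the top of the +/+ range. The means of 1324 ± 81.0 and 1227 ± 123 (SD, n = 5 each) gave a log2 fold change of -0.11 (SE 0.08, 95% interval -0.29 to 0.06, limma adjusted p = 0.594; exact permutation test, p = 0.175). The ratio of Amn to Cubn, calculated within each mouse, ranged from 0.828 to 0.981 in +/+ and from 0.668 to 1.01 in KI/+, so the ranges overlapped.

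Lrpap1 encodes RAP, the chaperone of megalin. In +/+ mice its values were 2647, 2747, 2444, 2504 and 2617 normalized counts, and in KI/+ mice they were 2547, 2397, 2863, 2642 and 2278. KI/+ mice held both the highest and the lowest value. The difference was the smallest among the members, -0.03 on the log2 scale (SE 0.08, 95% interval -0.19 to 0.14, limma adjusted p = 0.908; exact permutation test, p = 0.643).

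Dab2 encodes the clathrin adaptor that binds the tail of megalin and brings the receptor into coated pits. The 5 +/+ kidneys had 3422, 3524, 3684, 3886 and 3927 normalized counts, and the 5 KI/+ kidneys had 2810, 2925, 3159, 2951 and 2672. Every KI/+ mouse was below every +/+ mouse, with 3159 as the highest KI/+ value and 3422 as the lowest +/+ value. The mean fell from 3689 ± 220 (SD, n = 5) to 2903 ± 181 (SD, n = 5), a log2 fold change of -0.35 (SE 0.08, 95% interval -0.50 to -0.19), or a fall of 21.3% with an interval from -29.5% to -12.1%. Dab2 passed the limma test over all genes with an adjusted p of 0.0131, and the exact permutation test gave p = 0.00794, the smallest that 5 mice against 5 allow. It stood at position 255 of the 13197 genes by p, so many genes separated the genotypes more clearly. The spread of Dab2 was similar in both genotypes, with coefficients of variation of 5.96% and 6.22%.

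The call of Dab2 was lost in some settings. Over 22 alternative settings its log2 fold change stayed between -0.41 and -0.32, and it was called in 19 of them. The lowest adjusted p was that of DESeq2 (0.00015). The call was lost with limma without a trend of the variance (adjusted p = 0.0712), without +/+ replicate 4 (-0.33, adjusted p = 0.0541) and without +/+ replicate 5 (-0.32, adjusted p = 0.0577), the 2 mice with the highest values. The library codes end in 38 to 40, 53 to 58 and 66, and the labels do not say whether they mark separate preparation. They were split here into 2 runs, with KI/+ replicate 5 (code ending in 66) placed in the second. In the run with codes ending in 53 to 66 (3 +/+ and 4 KI/+ mice) the log2 fold change of Dab2 was -0.39 (limma adjusted p = 0.0262), and with the run as a covariate it was -0.37 (adjusted p = 0.00285). The other run, with codes ending in 38 to 40, holds 1 KI/+ mouse and gives no test; its values were 3422 and 3524 in +/+ and 2810 in KI/+.

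**Figure D2:**
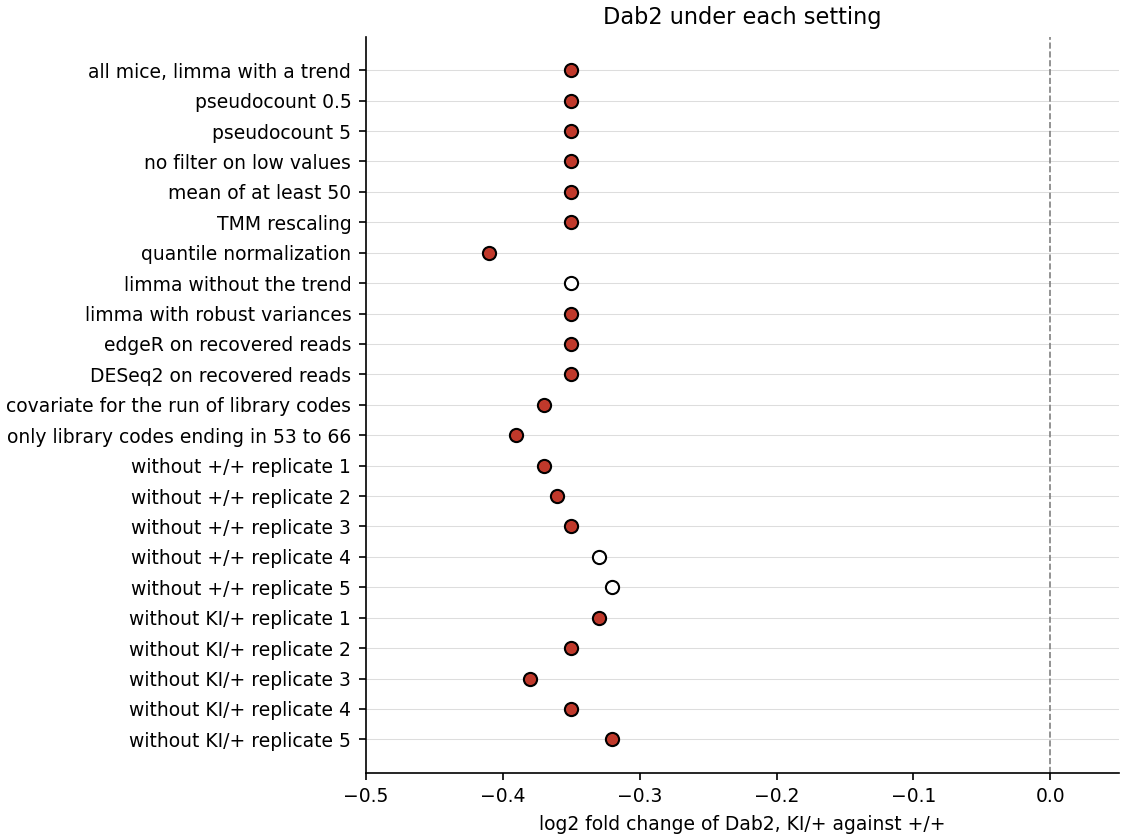
Log2 fold change of Dab2, KI/+ against +/+ (x axis), under the main setting and 22 alternatives (1 per line). Filled points passed an adjusted p of 0.05 and open points did not, and all points lie between -0.41 and -0.32, with 3 of them open.

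Set against the other members within a mouse, Dab2 was lower in KI/+ kidneys relative to Lrpap1. The ratio of Dab2 to Lrpap1 was 1.43 ± 0.13 (SD, n = 5) in +/+, with a range of 1.28 to 1.55, and 1.14 ± 0.0522 (SD, n = 5) in KI/+, with a range of 1.10 to 1.22. The ratio of Dab2 to Lrp2 overlapped, from 0.896 to 1.03 in +/+ and from 0.606 to 1.19 in KI/+, and the highest value belonged to KI/+ replicate 3, in which Lrp2 was lowest. The ratio of Dab2 to Cubn overlapped as well, from 2.22 to 2.92 in +/+ and from 1.62 to 2.26 in KI/+. These ratios share Dab2, were formed after its difference was known, and are given without a test.

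Clcn5 encodes the endosomal exchanger ClC-5. Its values were 992, 956, 1040, 1031 and 993 normalized counts in +/+ mice and 961, 902, 1231, 1002 and 1345 in KI/+ mice. KI/+ replicates 3 and 5 were above every +/+ mouse, and KI/+ replicate 2 was below every +/+ mouse. The log2 fold change was 0.10 (SE 0.10, 95% interval -0.11 to 0.32, limma adjusted p = 0.714; exact permutation test, p = 0.397). Similar to Lrp2, Clcn5 varied more in KI/+ (coefficient of variation 17.5%) than in +/+ kidneys (3.37%), a difference that was not tested.

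Ocrl encodes a phosphatase that removes the 5-phosphate of membrane phosphoinositides on early endosomes and coated pits. The gene was covered by 64 to 98 reads per library, the fewest among the members. Normalized counts were 64, 87, 101, 83 and 90 in +/+ and 74, 67, 67, 82 and 85 in KI/+ mice, and all KI/+ values fell within the +/+ range. Its log2 fold change of -0.17 (SE 0.14, 95% interval -0.47 to 0.14, limma adjusted p = 0.655; exact permutation test, p = 0.222) had the widest interval of the 8. Counting error amounts to 11.2% at this depth, beside coefficients of variation between mice of 15.9% in +/+ and 10.9% in KI/+. A difference of the size seen for Dab2 lies inside the interval of Ocrl, which reaches from -27.8% to 9.85%.

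Fcgrt encodes the heavy chain of the neonatal Fc receptor. It held 796, 677, 687, 684 and 825 normalized counts in +/+ mice and 813, 735, 882, 740 and 824 in KI/+ mice. All 5 KI/+ values were above the +/+ mean of 734 ± 71.0 (SD, n = 5), but 4 of them lay within the +/+ range. The log2 fold change of 0.12 (SE 0.09, 95% interval -0.06 to 0.31, limma adjusted p = 0.565; exact permutation test, p = 0.19) was not called. Its light chain is encoded by B2m, with 3303 ± 561 normalized counts in +/+ and 4101 ± 1189 in KI/+ kidneys (SD, n = 5 each; log2 fold change 0.28, limma adjusted p = 0.457).

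**Figure D3:**
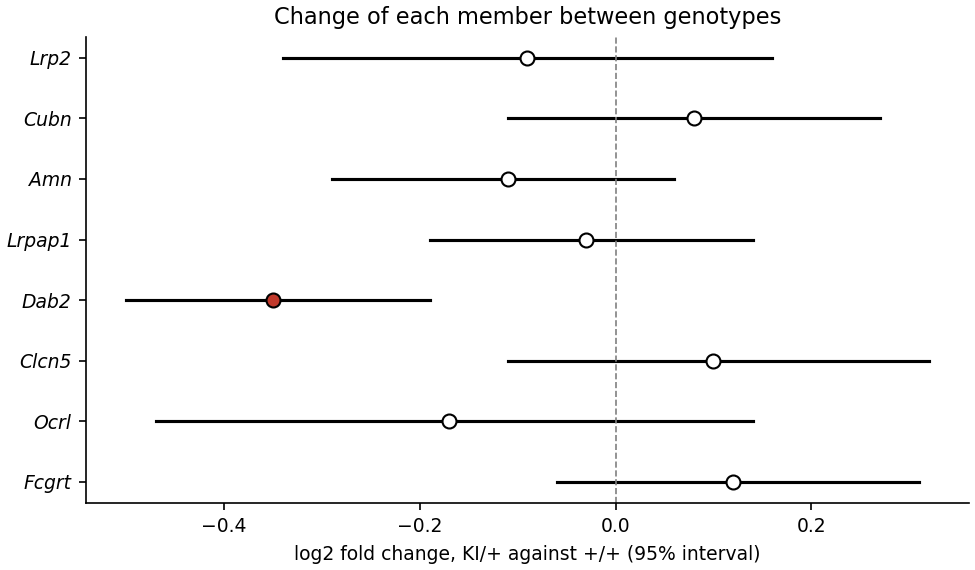
Log2 fold change of each member, KI/+ against +/+ (x axis, point), with its 95% interval from the limma fit (line). Only the interval of Dab2, from -0.50 to -0.19, leaves out 0, and the filled point marks its call.

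The total over the 8 members was 14702 ± 477 normalized counts in +/+ and 13833 ± 637 in KI/+ kidneys (SD, n = 5 each), with ranges of 14047 to 15341 and 13295 to 14845 that overlap.

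Few genes that work beside the members were called. In all, 7 lists covered relatives, coats, sorting factors, acidification, phosphoinositide enzymes and associated proteins, Fc receptor partners and vitamin cargo handling. Of their 107 tested genes, 0 were called higher and 1 was called lower in KI/+, that is 0.935% beside 3.69% of all genes. The median log2 fold change was -0.02. The gene called was Appl2, an adaptor on early endosomes that binds Rab5 and phosphoinositides. It had 219 ± 24.4 normalized counts in +/+ and 141 ± 18.8 in KI/+ kidneys (SD, n = 5 each), and the highest KI/+ value of 161 was below the lowest +/+ value of 184. Appl2 fell by 0.64 on the log2 scale (SE 0.12, limma adjusted p = 0.0038) and was called in 22 of 22 alternative settings.

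Among 9 tested LDL receptor family relatives of megalin, 0 were called. Sorl1, a sorting receptor, differed by -0.18 (limma adjusted p = 0.302), the reelin receptor Vldlr by -0.16 (adjusted p = 0.443) and Lrp1, a close relative of megalin, by -0.13 (adjusted p = 0.762) on the log2 scale. Among 18 clathrin coat and adaptor genes, 0 were called. For Gipc1, a PDZ protein that binds the tail of megalin, the log2 fold change was -0.03 (limma adjusted p = 0.955). The smallest p values of the list belonged to Eps15 (-0.25, adjusted p = 0.262), an accessory protein of coated pits, and Ap2s1 (0.32, adjusted p = 0.348), a subunit of the AP-2 adaptor.

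In the list of 35 endosomal tethers and sorting factors, Appl2 was followed by Rab11fip5 (log2 fold change -0.28, limma adjusted p = 0.22), an effector of recycling endosomes. Snx17, a sorting nexin that returns receptors of the LDL receptor family to the surface, differed by 0.08 (adjusted p = 0.82). Of 12 tested acidification genes, 0 were called. Clcn3, a relative of Clcn5, did not overlap between genotypes, with 1245 to 1387 normalized counts in +/+ and 1416 to 1599 in KI/+ mice, and missed the threshold (log2 fold change 0.21, limma adjusted p = 0.141; exact permutation test, p = 0.00794). Clcn4, the other relative, differed by -0.05 (adjusted p = 0.846). Atp6v0c, a subunit of the proton pump, had 3819 ± 345 normalized counts in +/+ and 3073 ± 459 in KI/+ kidneys (SD, n = 5 each; log2 fold change -0.32, adjusted p = 0.0945).

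Of 18 tested phosphoinositide enzymes and associated proteins, 0 were called. The paralog of Ocrl, Inpp5b, differed by 0.16 (limma adjusted p = 0.599), and the kinases with the smallest p values were Pi4ka (0.20, adjusted p = 0.232) and Pip5k1b (-0.70, adjusted p = 0.379). Pip5k1b was low, with 17.4 ± 10.6 normalized counts in +/+ and 9.49 ± 3.3 in KI/+ kidneys (SD, n = 5 each). It was covered by 6 to 31 reads per library. Of 7 tested Fc receptor partners and relatives, 0 were called, and Hfe, an MHC-like regulator of iron uptake, differed by 0.18 (adjusted p = 0.625). The 8 tested genes for handling vitamin cargo gave 0 calls as well, with Abcd4 (-0.24, adjusted p = 0.608) and Lmbrd1 (-0.06, adjusted p = 0.817), both needed to export vitamin B12 from the lysosome, as the genes with the smallest p values.

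**Figure D4:**
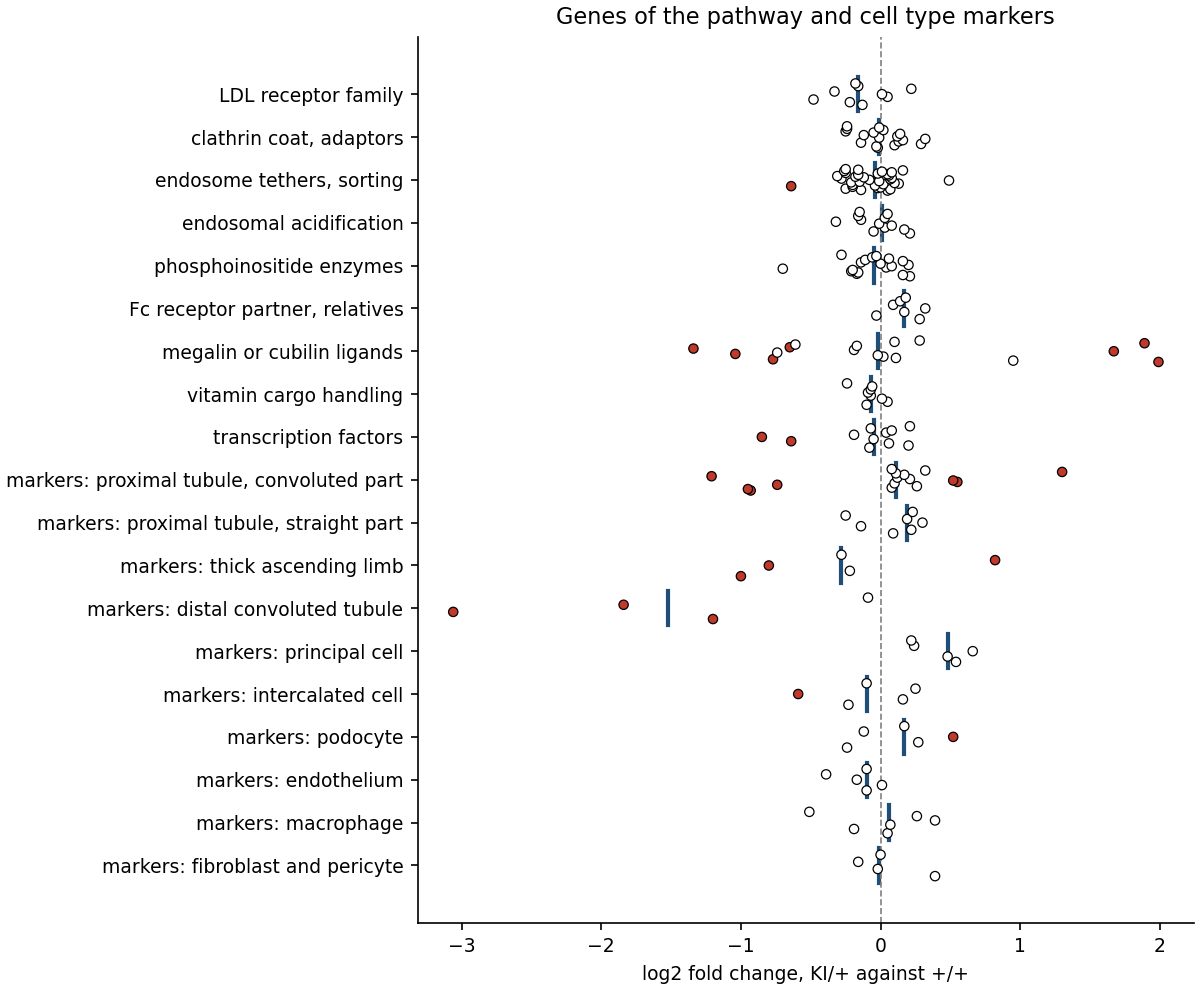
Log2 fold change of every tested gene (points, x axis, KI/+ against +/+) in the pathway and cell type marker lists (1 list per line), with filled points for genes called at an adjusted p of 0.05 and a vertical bar at the median of each list. The lists of uptake machinery lie near 0 with 1 filled point, while ligands, transcription factors and tubule markers hold several.

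The genes for proteins that megalin or cubilin bind moved in both directions. Of 17 tested, 3 rose and 4 fell, beside 3.69% of all genes tested that were called. The median log2 fold change was -0.02. Egf, made by the distal nephron, fell from 2935 ± 346 to 1495 ± 468 normalized counts (SD, n = 5 each; log2 fold change -1.04, limma adjusted p = 0.00207), without overlap. The metallothionein genes fell too, Mt1 from 1452 ± 105 to 577 ± 70.0 (log2 fold change -1.34, adjusted p = 5.14e-08) and Mt2 by 0.65 on the log2 scale (adjusted p = 0.0175), although Mt2 was called in 19 of 22 settings and not with limma without the trend, not in the mice with codes ending in 53 to 66 and not without KI/+ replicate 4. Apoe fell by 0.77 (adjusted p = 0.00782), and its call was lost with limma without the trend.

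Of the 3 ligand genes that rose, Rbp4 and Lcn2 had low levels, and Alb had higher ones. Rbp4, the carrier of retinol, ranged from 4.27 to 7.3 normalized counts in +/+ and from 10.5 to 60.3 in KI/+ mice (log2 fold change 1.89, limma adjusted p = 0.00677). Lcn2, a siderophore-binding lipocalin and also an injury marker, had 8.62 ± 1.13 in +/+ and 33.5 ± 22.3 in KI/+ kidneys (SD, n = 5 each), without overlap (1.67, adjusted p = 0.00406). Alb, the albumin gene, ranged from 39.7 to 95.4 in +/+ and from 80.9 to 469 in KI/+ (1.99, adjusted p = 0.00362), overlapped in KI/+ replicate 3, and lost its call with robust variances. Rbp4 and Lcn2 passed the filter on low values through the KI/+ mice, in which they were high, so their calls are not independent of that filter. Rbp4 was tested in only 16 of the 22 alternative settings, with 5 of the 10 fits that leave out a mouse among them. It was called in these 16. These are transcript levels and do not measure the filtered protein.

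Among 11 tested transcriptional regulators of the proximal tubule and of the MiT/TFE family, 0 rose and 2 fell, beside 3.69% of all genes tested that were called. Maf, a leucine zipper factor, had 3326 to 4500 normalized counts in +/+ and 1906 to 3092 in KI/+ mice (log2 fold change -0.64, limma adjusted p = 0.00332). Ppargc1a, a coactivator of mitochondrial genes, had 506 to 753 in +/+ and 327 to 379.5 in KI/+ mice (-0.85, adjusted p = 4.64e-05). Tfeb (-0.07, adjusted p = 0.896) and Tfe3 (0.21, adjusted p = 0.595), factors of the MiT/TFE family, were not called and are given because their motif was searched, a choice made after their values were known. Their transcript levels do not measure the activity of the proteins. The paper reports less Tfeb and Tfe3 protein in the nucleus in tissues of fasted heterozygous knock-in mice.

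Dab2 and its partners were measured in whole tissue, in which fewer cells of a type and less RNA per cell cannot be told apart. All 16 markers of the convoluted proximal tubule were present, and Slc34a1, its phosphate transporter, had 28061 ± 1540.4 normalized counts in +/+ and 29693 ± 2428 in KI/+ kidneys (SD, n = 5 each; limma adjusted p = 0.754). Of the 16, 3 rose (Slc13a3, Slc22a6 and Pck1) and 4 fell (Slc5a2, Slc5a12, Slc6a19 and Gatm), beside 3.69% of all genes tested that were called. Their log2 fold changes ran from -1.21 to 1.3, with a median of 0.11. The summed level of the 16 markers ranged from 94863 to 110763 in +/+ and from 106710 to 129968 in KI/+ mice. Slc5a2, the sodium-glucose transporter of the early segment, fell by 0.93 (adjusted p = 4.64e-05) and Slc22a6, an organic anion transporter, rose by 0.52 (adjusted p = 0.00105). The call of Pck1 was lost with limma without the trend and with robust variances, and that of Gatm was kept in 17 of 22 settings and lost without +/+ replicate 4, +/+ replicate 5 or KI/+ replicate 4 and under the same variance settings. Of 7 markers of the straight part, 0 were called, with a median of 0.19. The log2 fold change of Dab2 was 0.46 below the median of the convoluted markers, but inside their range. Lrp2 (-0.20), Amn (-0.23), Ocrl (-0.28), Lrpap1 (-0.14), Cubn (-0.03), Clcn5 (-0.01) and Fcgrt (0.01) lay nearer to that median.

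Dab2 is also expressed in macrophages, endothelium and stromal cells. Of their 15 markers, 0 were called in limma, 3 had an unadjusted p under 0.05, and their log2 fold changes ran from -0.51 to 0.39. The summed level of 6 macrophage markers was 1194 to 1597 in +/+ and 1283 to 1628 in KI/+, that of 5 endothelial markers 1527 to 1818 and 1267 to 1758, and that of 4 stromal markers 946 to 1064 and 747 to 2013, with no marker at 0. Their part in the lower Dab2 was not tested. In the distal convoluted tubule 3 of 4 markers fell, with a median of -1.52, in the thick ascending limb 1 of 5 rose and 2 fell, and among intercalated cell markers 1 of 5 fell. Beside these counts, 3.69% of all genes tested were called. Of 5 podocyte markers, Synpo alone was called (log2 fold change 0.52, limma adjusted p = 0.0261), in 15 of 22 settings and in 5 of the 10 fits that leave out a mouse, and its call was lost without +/+ replicate 2, 4 or 5 or KI/+ replicate 1 or 5. Of 5 principal cell markers, 0 were called, but all 5 had higher means in KI/+, with a median log2 fold change of 0.48. The values of 2 did not overlap, Scnn1g (0.66, limma adjusted p = 0.0502) and Aqp3 (0.48, adjusted p = 0.051), beside 5.0% of all genes tested. Scnn1g was called in 5 of 21 alternative settings and Aqp3 in 6 of 22. Of 5 tested injury markers, Lcn2, with the limit on its filter given above, was called higher and Spp1 lower (log2 fold change -0.53, adjusted p = 0.0245). The call of Spp1 was made in 15 of 22 settings and lost without +/+ replicate 1, 2, 4 or 5 or KI/+ replicate 4.

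The libraries held 6501552 to 7856363 reads on genes in +/+ and 6872310 to 7996087 in KI/+ mice, so that depth differed little. The RIN of the RNA ranged from 6.5 to 8.0 over the samples, without values per mouse in the labels. Rragc itself had 285 ± 42.3 normalized counts in +/+ and 216 ± 23.6 in KI/+ kidneys (SD, n = 5 each; log2 fold change -0.40, limma adjusted p = 0.0678), and since gene counts do not show a substitution, they do not check the genotype. The labels do not say whether mice were littermates, and the p values judge a difference only against the spread between the mice sampled.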

How the data were processed

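Kidney RNA of 5 +/+ and 5 KI/+ mice was sequenced as stranded QuantSeq 3′ libraries. According to the methods and processing notes of the authors, reads were checked with FastQC 0.11.7, aligned to GRCm39 with TopHat2 2.0.10, Bowtie 1.0.0 and SAMtools 0.1.19 (3 mismatches and 20 multi hits) and counted with HTSeq 0.6.1. The methods name DESeq for the comparison of genotypes, while the processing notes list DESeq2. The authors deposited a signal per gene, that is, reads scaled by the size factor of the library (0.8818 to 1.1244). Multiple hits make the values of near-identical genes uncertain. Undoing the scaling gave whole reads for 100% of values (tolerance 0.01 reads), and 0 value columns were left unmatched.

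The deposited values were tested as log2(value + 1), two-sided, with limma 3.58.1 in R 4.3.3 (eBayes with a trend, Benjamini-Hochberg adjustment) in genes with a value of at least 10 in at least 5 mice. Fold changes on this scale understate low genes. Since the values are no raw counts, edgeR 4.0.16 (480 genes called) and DESeq2 1.42.0 served as alternatives on the reads so recovered. Single values were compared by an exact permutation test of the genotype labels (numpy 2.4.6). Replicate numbers follow the order of the sample records and pair no mice. The members, the lists and the rule for named genes were chosen with earlier results of these data known. Named were the members, the called genes of each list or else the 2 with the smallest p, 8 direct partners, and the 5 genes most correlated with Lrp2. A further gene covered by this rule is not reported here. The fit was tested on simulated data. Alternatives were other pseudocounts, filters, scalings and variance settings, both count models, the run of library codes, and leaving out each mouse. Livers and old kidneys were not analysed here.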

Additional observations from a re-analysis of the deposited data

How the results depend on the processing

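The direction of Dab2, Cubn, Amn, Clcn5, Ocrl and Fcgrt was kept in all 22 alternatives, and 19 of the 22 kept the call of Dab2. The number of genes called was 291 (103 higher and 188 lower) with limma without the trend and 832 (434 higher and 398 lower) with the run of codes as a covariate, against 487 (220 and 267), and ranged from 267 to 459 when each mouse was left out, with 267 without +/+ replicate 5 and 285 without +/+ replicate 4. The number of members called was 0 with limma without the trend and ranged from 0 to 1 when each mouse was left out. The log2 fold change of Lrpap1 was 0.01 in the mice with codes ending in 53 to 66 and ranged from -0.07 to 0.01 when each mouse was left out, and that of Lrp2 ranged from -0.18 to 0.02. Neither gene was called in any of these fits. The causes were not tested. DESeq2 called 648 genes and edgeR 480. TMM and quantile scaling moved the median of all genes by 0.005 at most. Single members moved more with quantile scaling, where Dab2 was at -0.41, Lrp2 at -0.15, Amn at -0.17 and Lrpap1 at -0.08. Cubn was at 0.01, Clcn5 at 0.06 and Fcgrt at 0.1, all lower than in the main fit. Ocrl alone was slightly higher, at -0.16, and Dab2 remained the only member called. Ocrl had the fewest reads among the members. No paired analysis was possible because the replicate numbers only name the mice.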
